A study of Mus musculus with 4 samples.

Results

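The heavy chain V segments of the mouse immunoglobulin locus were taken as every gene whose symbol starts with Ighv, with symbols matched to the Ensembl identifiers of the deposited files. This gave 185 members of 55573 identifiers in all, of which 113 are annotated as V genes, 70 as V pseudogenes and 2 as short V-like genes on the other strand. They belong to 16 families, given by the number after Ighv, and lie on chromosome 12 (GRCm38, GENCODE M21) between positions 113572927 and 116010093. The segment nearest to the D segments is 44.9 kb away from them and the farthest 2482 kb. The members were chosen by name alone, with no measured value.

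A developing B cell builds its heavy chain gene by cutting and joining DNA. A D segment is joined to a J segment, and then a V segment is joined to the DJ unit, after which the V promoter drives a transcript spliced to the constant region Ighm. Segments near the D segments (proximal, chiefly families 2 and 5) can be joined without large movements of the locus, whereas joining of the far segments (distal, chiefly families 1 and 8) is known to depend on contraction of the locus, which involves factors such as Pax5, Yy1 and Ezh2. V segments that have not been joined can also be transcribed from their own promoters, so the level of a V transcript is not a count of rearrangements. An RNA library of this kind gives V transcript levels from both sources.

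RNA was sequenced from B cells sorted as Fr.C+C' from bone marrow of C57BL/6 mice aged 8 to 12 weeks, a fraction that in Hardy's scheme covers late pro-B and large pre-B cells. There were 2 wild type libraries (WT 1, WT 2) and 2 libraries whose genotype is given as ADAR1 KO (KO 1, KO 2). Adar encodes ADAR1, an enzyme that turns adenosine into inosine in double-stranded RNA. The labels do not say how the knockout was made, whether it was limited to a cell type, or whether WT 1 and WT 2, or KO 1 and KO 2, are different animals. The p-values therefore measure only library-to-library spread, which may be technical. Fewer cells of a type and less RNA per cell cannot be told apart in such bulk samples.

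The germline sequences below show how alike or unlike the members named in the results are, since near-identical segments can trade fragments during counting. Each is the last 290 bases of the longest annotated transcript (GENCODE M21, GRCm38, minus strand), written 5′ to 3′, ending where the D segment is joined. The pair from family 11 holds Ighv11-2, the member with the smallest adjusted p below, and its nearest relative, and capitals mark the 4 bases at which they differ. Ighv11-2 lies at chr12:114048241-114048812 and Ighv11-1 at chr12:113981879-113982341.
Ighv11-2: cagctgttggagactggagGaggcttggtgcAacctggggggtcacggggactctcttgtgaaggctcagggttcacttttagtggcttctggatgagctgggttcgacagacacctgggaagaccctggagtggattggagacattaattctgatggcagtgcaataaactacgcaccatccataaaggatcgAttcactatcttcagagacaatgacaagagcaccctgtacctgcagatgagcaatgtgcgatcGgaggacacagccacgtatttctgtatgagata
Ighv11-1: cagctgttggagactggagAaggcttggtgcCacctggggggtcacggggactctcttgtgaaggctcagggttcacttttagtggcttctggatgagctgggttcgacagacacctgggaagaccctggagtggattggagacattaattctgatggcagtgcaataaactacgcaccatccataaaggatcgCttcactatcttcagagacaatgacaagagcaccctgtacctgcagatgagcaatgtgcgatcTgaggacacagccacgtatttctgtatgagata
In the next 3, capitals mark the last TGT triplet, the codon of the conserved cysteine that closes the framework before the joined junction. They are the most abundant distal member in wild type (Ighv1-81, chr12:115920279-115920712), the proximal member past the threshold below (Ighv5-9-1, chr12:113736111-113736630) and the tested member nearest to the D segments (Ighv5-2, chr12:113578504-113578990).
Ighv1-81: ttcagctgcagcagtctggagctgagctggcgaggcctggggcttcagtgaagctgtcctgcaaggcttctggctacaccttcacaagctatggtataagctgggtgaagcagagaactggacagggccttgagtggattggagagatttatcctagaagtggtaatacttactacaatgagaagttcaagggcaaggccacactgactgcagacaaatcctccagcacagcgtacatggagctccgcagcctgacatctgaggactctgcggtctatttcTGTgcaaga
Ighv5-9-1: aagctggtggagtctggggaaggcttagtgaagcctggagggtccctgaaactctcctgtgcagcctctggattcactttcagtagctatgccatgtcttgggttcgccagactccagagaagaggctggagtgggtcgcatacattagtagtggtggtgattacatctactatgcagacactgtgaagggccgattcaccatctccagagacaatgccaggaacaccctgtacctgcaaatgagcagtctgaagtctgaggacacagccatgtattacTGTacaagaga
Ighv5-2: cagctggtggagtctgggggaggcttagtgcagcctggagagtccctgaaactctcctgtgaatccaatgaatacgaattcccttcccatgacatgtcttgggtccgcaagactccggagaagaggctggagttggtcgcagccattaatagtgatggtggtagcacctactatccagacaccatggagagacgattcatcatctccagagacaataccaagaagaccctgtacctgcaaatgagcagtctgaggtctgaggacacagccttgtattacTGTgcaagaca
Over these 290 bases Ighv5-9-1 and Ighv5-2 were 84.5% identical and Ighv1-81 and Ighv5-9-1 62.4%. Of 180 members with a transcript of that length, 70 had another member at least 95% identical, so levels of single segments are uncertain where counting could split or discard shared fragments. An example was Ighv1-72 and Ighv1-62-3, 99.3% identical. In the order WT 1, WT 2, KO 1, KO 2, used throughout, the first was at 23.97, 20.46, 8.45 and 2.34 FPKM and the second at 1.72, 1.20, 0.31 and 0.49 FPKM.

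Each library held between 15111191 and 16401017 fragments assigned to genes, as estimated from the steps of the low FPKM values (fragments per kilobase of exon, scaled to library size). KO 2 stood apart from the other libraries. Its summed level of 14 neutrophil markers was 72425 FPKM, compared with 27269, 25294 and 35176 FPKM in the other 3, and its summed level of 22 B-lineage markers was 1629 FPKM, against 3468, 3629 and 2870.5 FPKM. All 22 B-lineage markers were above 0 in every library. Adar over the whole gene was at 15.04, 14.62, 15.19 and 16.79 FPKM, which does not check the knockout label, since the loss of some exons need not lower the total. Results below are given for each library for these reasons.

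Heavy chain V transcripts were at lower levels in both libraries labelled KO. The summed level of the 185 members was 1546 and 1819 FPKM in WT 1 and WT 2 versus 579.6 and 221.96 FPKM in KO 1 and KO 2, means of 1683 ± 193 and 401 ± 253 FPKM (SD, n = 2). The groups did not overlap, and KO 1 held 34.4% and KO 2 13.2% of the wild type mean. These sums rest on about 8935, 10969, 3355 and 1221 fragments. For 2 libraries per group the smallest two-sided p of an exact permutation test is 0.333, so sums and shares are given as values with no test. The gap between KO 1 and KO 2 was wider than that between the wild type libraries and ran alongside the neutrophil and B-lineage marker sums above, whose part in it was not tested. Multiplying each library so that the B-lineage markers had an equal geometric mean gave sums of 1357, 1447, 548 and 407 FPKM, which still did not overlap between the groups.

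The rest of the heavy chain locus did not move by the same amount. Ighm, the IgM constant region to which a new V transcript is spliced, was at 1385.13 and 1721.93 versus 1151.36 and 502.56 FPKM and did not pass the test (adjusted p = 0.435, limma). The ratio of summed V segments to Ighm was 1.12 and 1.06 in wild type versus 0.503 and 0.442 in KO 1 and KO 2. Against the sum of all 8 heavy chain constant regions the ratio was 0.788 and 0.838 versus 0.487 and 0.430. Both ratios were close between KO 1 and KO 2, in contrast to the summed levels themselves. The 4 J segments, short stretches that join to D and then to V, had summed levels of 372 and 415 FPKM in wild type versus 423 and 290.11 FPKM, so KO 1 lay above and KO 2 below both wild type libraries. Those values rest on short features of between 48 and 100 nt.

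**Figure D1:**
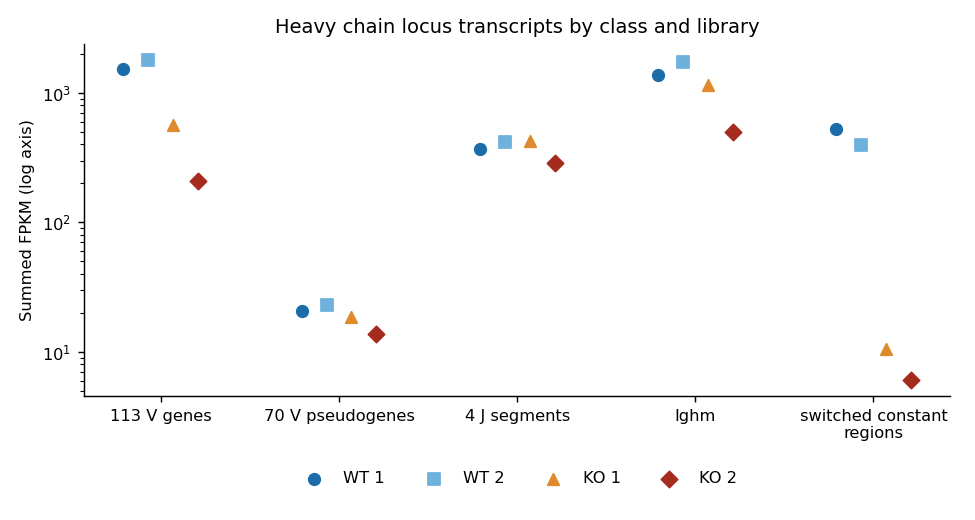
Summed FPKM (log axis) of the V genes, V pseudogenes, J segments, Ighm and the 6 class-switched constant regions, with a point for each library. V genes stood at 1526 and 1796 FPKM in wild type versus 561 and 208 FPKM, while V pseudogenes stood at 20.5 and 23.0 versus 18.6 and 13.8 FPKM.

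Class-switched constant regions, which mark antibody-secreting and memory B cells, had summed levels of 529 and 398 FPKM in wild type versus 10.6 and 6.03 FPKM. Igha was at 304.55 and 216.96 versus 0.33 and 0.20 FPKM, and Jchain, a chain of secreted IgA and IgM, at 105.85 and 91.45 versus 0.25 and 0.45 FPKM (adjusted p = 0.00135 for each, limma). Of 11 plasma cell markers 10 were tested and 3 fell (Igha, Jchain and Ighg2b), where 0.203% of all genes tested did. Among the 11, 9 were lower in KO 1 and KO 2 than in WT 1 and WT 2, as were 20.4% of all genes above 0 in a library. The summed level was 771 and 679 versus 234 and 143 FPKM, and Igha, Jchain and Ighg2b made up most of it in wild type. Xbp1 went the other way, at 45.61 and 39.29 versus 47.08 and 55.40 FPKM. Mzb1 overlapped between the groups, at 39.22 and 37.55 versus 50.87 and 28.14 FPKM. Tnfrsf17, a survival receptor of plasma cells, was listed at 0 in KO 1 and KO 2, and no other marker of that list was. Of these transcripts, those of the class-switched constant regions can also carry V segments, and their part in the V levels was not tested.

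The difference extended along the whole locus. The 33 members of the proximal families 2 and 5 had summed levels of 193 and 289.38 FPKM in wild type versus 94.9 and 31.6 FPKM, the 43 members of the other families 389 and 445 versus 151 and 55.3 FPKM, and the 109 members of the distal families 1 and 8 964 and 1085 versus 333 and 135 FPKM. In KO 1 these were 39.3%, 36.3% and 32.5% of the wild type mean, in order from proximal to distal. In KO 2 they were 13.1%, 13.3% and 13.2%, with no order to speak of. Medians were also taken over single members with a mean of at least 1 FPKM over the 4 libraries. They were 35.0%, 36.3% and 35.5% in KO 1 and 10.2%, 12.5% and 13.5% in KO 2. The fall from proximal to distal in the KO 1 sums was thus not seen in its medians. For each of the 3 stretches both KO-labelled libraries lay below both wild type libraries.

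Shares of the total differed between the groups by a few percentage points. The distal families held 62.3% and 59.6% of summed V level in wild type versus 57.5% and 60.9%, means of 61.0 ± 1.92 and 59.2 ± 2.37 percent (SD, n = 2). The proximal families held 12.5% and 15.9% versus 16.4% and 14.2%, means of 14.2 ± 2.41 and 15.3 ± 1.52 percent. Both differences (-1.80 and 1.09 percentage points) were smaller than the spread within a group. Over V genes alone, without pseudogenes, the distal share was 62.03% and 59.27% versus 56.47% and 58.26%, a difference of -3.28 percentage points with no overlap of the groups. The 7 members among the 3 most abundant of any library, mostly distal, were also left out of all 4 libraries, and the differences were then 2.07 and -1.29 percentage points. That removal itself lowers the distal share, most of all in WT 1, so the turned signs say little of the other members. The proximal difference also changed sign without WT 1, to -0.62 percentage points.

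Position alone, without regard to family, also gave small differences in share. The members were split by rank of position into 4 blocks of 47, 46, 46 and 46, numbered from the D segments outward. Block 1 held 20.4% and 23.0% of the summed level in wild type versus 24.2% and 20.6%, block 2 22.4% and 23.0% versus 24.7% and 24.5%, and block 3 23.5% and 20.3% versus 21.7% and 23.4%. Block 4, the farthest, held 33.6% and 33.7% versus 29.4% and 31.5%. The groups did not overlap in block 2, where the share was higher in KO 1 and KO 2, or in block 4, where it was lower. Block 4 holds Ighv1-81, and without this segment, which was singled out after its values were seen, it held 26.9% and 29.9% versus 28.2% and 30.6%. Among the 99 members with a mean of at least 1 FPKM over the 4 libraries, Spearman's rho of the log2 change with distance from the D segments was -0.03 in KO 1 and 0.04 in KO 2. Both use the same wild type mean, and members are not independent of each other, so the values are descriptions.

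**Figure D2:**
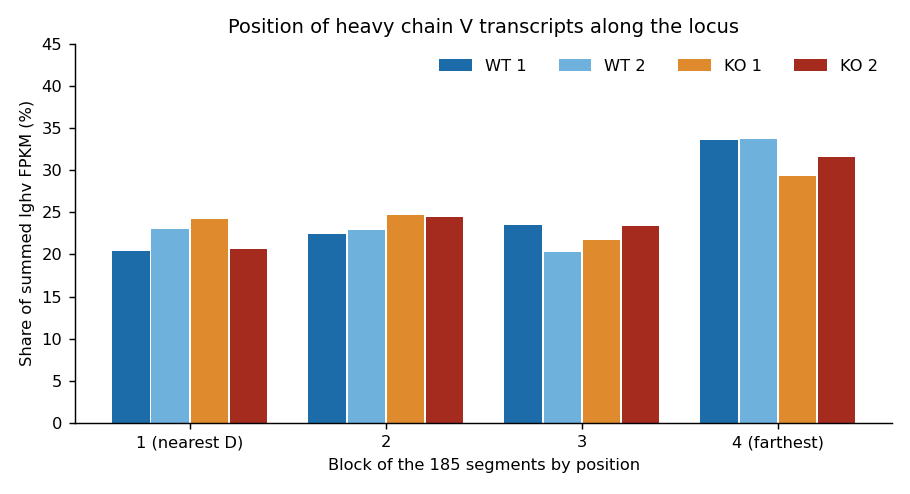
Share of summed V segment FPKM (percent) held by each of 4 blocks of the 185 members by position, with a bar for each library. Shares of the 3 nearer blocks lay between 20.3% and 24.7% in all libraries, and that of the farthest between 29.4% and 33.7%.

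**Figure D3:**
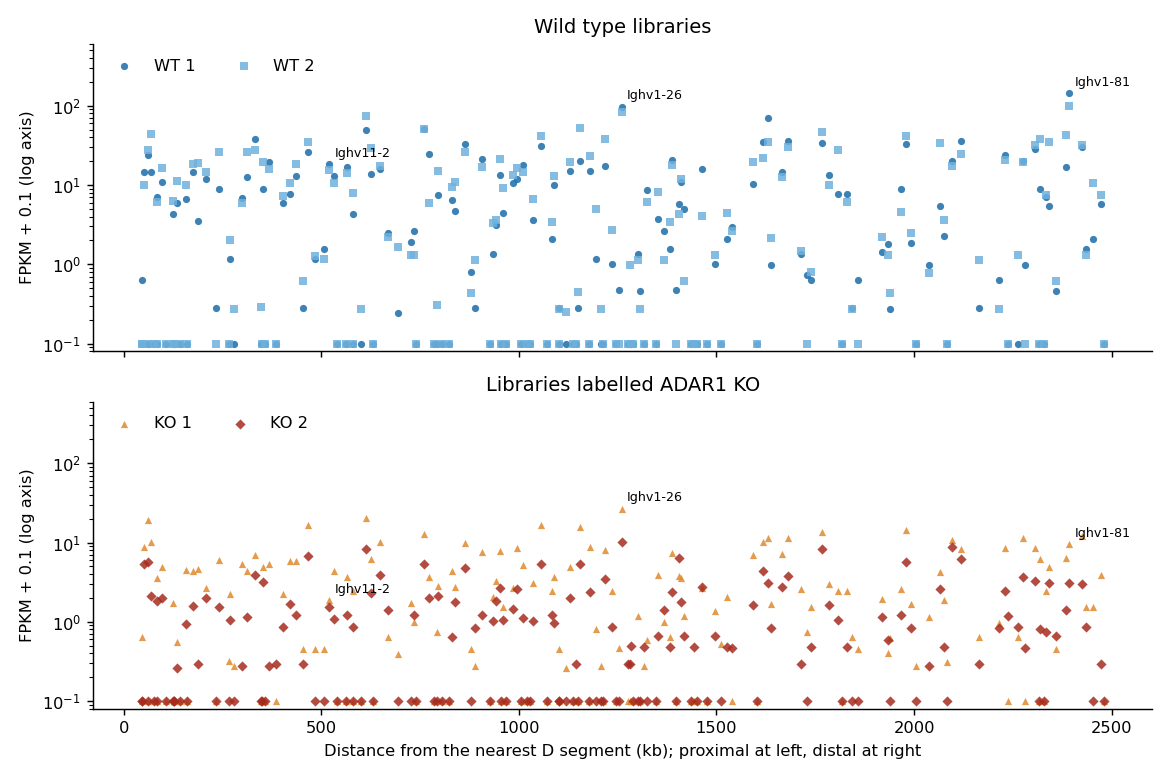
FPKM + 0.1 (log axis) of all 185 members against distance from the nearest D segment (kb), wild type libraries above and KO-labelled libraries below. Points at 0.1 are members listed at 0. High and low members are interleaved along the whole locus, and the number at 10 FPKM or more was 50 and 60 in wild type versus 16 and 0.

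All 15 families with a value above 0 had lower sums in KO 1 and KO 2 than in WT 1 and WT 2, as they did with B-lineage scaling and with values rescaled without immunoglobulin genes. The single member of family 16 was listed at 0 throughout. Family 1, the largest with 93 members, was at 884 and 1001 FPKM in wild type versus 303 and 116 FPKM. Family 5, with 22 members, was at 129.98 and 173.71 versus 48.71 and 17.69 FPKM, and family 9, with 4, at 94.84 and 102.74 versus 30.04 and 11.86 FPKM. In KO 1 the lowest family was family 11 at 12.5% of the wild type mean and the highest family 4 at 60.5%. In KO 2 the lowest was family 7 at 6.47% and the highest family 8 at 23.5%. The order of families thus differed between KO 1 and KO 2.

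Family shares of the smaller total moved in both directions. The 4 members of family 14 held 3.92% and 3.86% of the summed level in wild type versus 5.70% and 5.45%. Family 1 held 57.2% and 55.0% versus 52.3% and 52.2%, but 52.8% and 52.4% versus 51.5% and 51.6% without Ighv1-81. Family 2 held 4.09% and 6.36% versus 7.96% and 6.24%, so its groups overlapped. In all, the shares of 5 families were higher and those of 6 lower in KO 1 and KO 2 than in WT 1 and WT 2. Shares sum to 100%, so these moves are not independent.

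**Figure D4:**
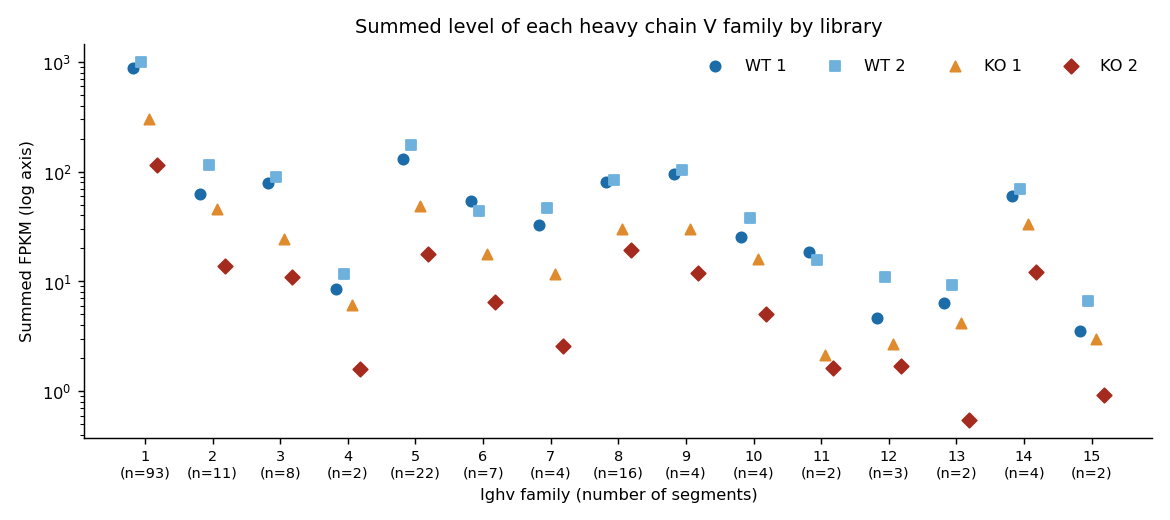
Summed FPKM (log axis) of each V family by library, with the number of segments under each family. In every family KO 1 and KO 2 lie below both wild type libraries, and KO 2 lies below KO 1.

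Single members were tested with limma on log2(FPKM + 1), keeping genes whose mean reached 1 FPKM in the wild type or the KO-labelled group. Of the 185 members 41 were listed at 0 in every library, 104 passed that filter, and 15 of those passed through their wild type mean alone. At an adjusted p under 0.05, 2 of the 104 members fell and 0 rose, against 0.203% of 13281 genes that fell and 0% that rose. Of the 27 genes that fell, 25 are annotated as immunoglobulin genes, these 2 members among them. Of the 89 members with means of at least 1 FPKM in both groups, 65 were lower and 0 higher at an unadjusted p under 0.05, while 5.28% of the 12208 genes with such means were lower and 6.19% higher. Voom, the other method run, called 0 members, as did the main method with no filter. Of the 144 members above 0 in a library, 88 were lower in KO 1 and KO 2 than in WT 1 and WT 2, 61.1%, against 20.4% of all 26648 genes above 0 in a library. Lying above both wild type libraries was seen for 2 members, against 17% of those genes. These were Ighv1-33, at 0, 0, 0.18 and 0.38 FPKM, and Ighv1-71, at 0.53, 0.17, 0.88 and 0.74 FPKM, which rest on a few fragments each.

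Ighv11-2 fell. It is a segment known from B-1 cells that bind phosphatidylcholine. Its level was 18.26 and 15.20 FPKM in wild type versus 1.78 and 1.43 FPKM, about 133 and 115 fragments against 13 and 10. Both KO-labelled libraries were far below both wild type libraries and close to each other, with means of 16.7 ± 2.16 and 1.60 ± 0.247 FPKM (SD, n = 2), 10.4-fold apart. The log2 change was -2.76 ± 0.17 (SE, 95% interval -3.20 to -2.33, adjusted p = 0.0119, limma). Its near copy Ighv11-1, printed with it above, was at 0.18, 0.52, 0.36 and 0.19 FPKM, at most a few fragments in each library.

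Ighv5-9-1, a proximal segment 208 kb from the D segments, also fell. It was at 11.80 and 14.60 FPKM in wild type versus 2.60 and 1.92 FPKM, means of 13.2 ± 1.98 and 2.26 ± 0.481 FPKM (SD, n = 2), 5.84-fold apart. The log2 change was -2.12 ± 0.19 (SE, adjusted p = 0.0443, limma). Neither call held when WT 1, WT 2 or KO 2 was left out, with adjusted p between 0.0641 and 0.197 for Ighv11-2 and between 0.212 and 0.234 for Ighv5-9-1, while the log2 changes then lay between -2.89 and -2.64 and between -2.27 and -1.97. Both also missed the threshold with no filter on low values (adjusted p = 0.199 and 0.306, limma) and with voom (0.103 and 0.168). With a pseudocount of 0.1 Ighv5-9-1 missed it (adjusted p = 0.072, limma) and Ighv11-2 passed (0.0199). Without KO 1, 48 members fell, these 2 among them, and 948 of all 13361 genes then tested were called, 563 of them higher. That fit holds KO 2 as the only library of its group, with the spread taken from wild type.

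The largest log2 change belonged to a segment that did not pass. Ighv1-81, a distal member 2392 kb from the D segments, had the highest level of all members in both wild type libraries. It was at 142.97 and 99.79 FPKM there against 9.53 and 3.01 FPKM, about 793 and 575 fragments against 53 and 16. The groups were far apart, with means of 121 ± 30.5 and 6.27 ± 4.61 FPKM (SD, n = 2), 19.4-fold apart, and a log2 change of -4.21 ± 0.48 (SE, adjusted p = 0.0858, limma). Its share of the summed level was 9.25% and 5.49% versus 1.64% and 1.36%. Among fits without a replicate term it passed with a filter of 5 FPKM (adjusted p = 0.0451), with values rescaled without immunoglobulin genes (0.0371), and with B-lineage scaling (1.2e-09). It also did without KO 1 (0.0426), where KO 2 alone stands for its group and wild type gives the spread. It did not pass without WT 1, WT 2 or KO 2 (0.106 to 0.217), and its adjusted p over all alternatives lay between 1.2e-09 and 0.460 (limma or voom).

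Other abundant members stood closer to their wild type share. Ighv1-26, 1260 kb from the D segments, was at 97.54 and 83.99 FPKM in wild type versus 26.62 and 9.98 FPKM, and was the most abundant member in KO 1 and KO 2. Its share was 6.31% and 4.62% versus 4.59% and 4.50%. Ighv9-3 was at 49.58 and 74.97 versus 20.50 and 8.10 FPKM, and Ighv3-6 at 51.35 and 50.99 versus 12.63 and 5.29 FPKM. None of these 3 passed (adjusted p = 0.262, 0.293 and 0.159, limma). In all 3 the groups did not overlap, and KO 2 was below KO 1.

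Ighv1-53 and Ighv1-80, both in the distal stretch, had large log2 changes with wide errors. Ighv1-53 was at 69.77 and 34.53 versus 11.15 and 3.01 FPKM, and Ighv1-80 at 16.95 and 42.52 versus 6.29 and 1.32 FPKM (log2 changes -2.84 ± 0.60 and -2.76 ± 0.67, adjusted p = 0.294 and 0.320, limma). For both the wild type libraries differed from each other by more than 2-fold. Ighv5-9, a proximal member, was at 5.90 and 11.08 versus 0.45 and 0.16 FPKM, with 3 and 1 fragments in KO 1 and KO 2. Its error was smaller (log2 change -2.82 ± 0.32, adjusted p = 0.0832, limma), but the added 1 draws values near 0 together. With a pseudocount of 0.1 the log2 change was -4.44. Its mean reached 1 FPKM in wild type alone, which fixed a lower KO mean for it.

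The leading members of the remaining families behaved alike in direction. Ighv8-8 was at 33.76 and 46.62 versus 13.40 and 8.13 FPKM and Ighv6-3 at 32.35 and 26.18 versus 9.75 and 4.64 FPKM. Ighv14-2 was at 25.96 and 35.23 versus 16.55 and 6.59 FPKM and Ighv5-17 at 37.97 and 27.37 versus 6.86 and 3.76 FPKM. Ighv7-3 was at 13.50 and 29.36 versus 6.12 and 2.20 FPKM and Ighv10-1 at 13.40 and 21.38 versus 7.74 and 2.58 FPKM. For each of these 6 both KO-labelled libraries were below both wild type libraries, and none passed the test. The same held for the leaders of the small families, Ighv4-1 (7.49 and 10.59 versus 5.79 and 1.60 FPKM), Ighv12-3 (4.66 and 10.70 versus 2.68 and 1.69 FPKM), Ighv13-2 (6.35 and 9.33 versus 4.22 and 0.55 FPKM) and Ighv15-2 (3.55 and 6.65 versus 3.01 and 0.93 FPKM). Ighv1-9 (30.83 and 41.82 versus 16.73 and 5.27 FPKM) and Ighv1-64 (32.81 and 40.91 versus 14.34 and 5.55 FPKM), among the 8 most abundant members, did not pass either.

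The members at the ends of the locus did not pass the test. Ighv5-2, 50.45 kb from the D segments and known as a segment favoured in early rearrangement, was at 14.34 and 10.01 versus 8.76 and 5.24 FPKM (log2 change -0.74 ± 0.28, adjusted p = 0.397, limma). Its neighbour Ighv2-2 was at 23.55 and 27.86 versus 19.01 and 5.64 FPKM, among the 3 most abundant members in KO 1. At the far end, Ighv1-84 was at 1.98 and 10.41 versus 1.44 and 0 FPKM and Ighv1-85 at 5.59 and 7.29 versus 3.78 and 0.19 FPKM, the KO 2 values on 0 and 1 fragments. KO 1 was within 2-fold of the wild type mean for Ighv5-2, Ighv2-2 and Ighv1-85, at 1.39, 1.35 and 1.70-fold lower. Ighv1-69, a distal segment, was at 19.83 and 17.18 versus 10.61 and 8.67 FPKM, and was second in abundance in KO 2 (adjusted p = 0.267).

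V pseudogenes, segments that cannot give a working chain, stood nearer to their wild type level than V genes did. The 70 pseudogenes had a summed level of 20.5 and 23.0 FPKM in wild type versus 18.6 and 13.8 FPKM, or 85.6% and 63.5% of the wild type mean in KO 1 and KO 2, where the 113 V genes were at 33.8% and 12.5%. The groups did not overlap in either class, but with B-lineage scaling the pseudogene sums were 18.0 and 18.3 versus 17.6 and 25.4 FPKM and did overlap. The pseudogene sums rest on about 113, 133, 102 and 72 fragments. Their share of all V transcripts was 1.33% and 1.27% in wild type versus 3.22% and 6.23%. Of the 35 pseudogenes above 0 in a library, 6 (17.1%) were lower in KO 1 and KO 2 than in WT 1 and WT 2, against 82 of 109 V genes (75.2%) and 20.4% of all genes above 0 in a library. The pseudogene count is thus near that of all genes, low values tie more often, and a difference between the classes was not tested.

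Ighv1-41 was the most abundant pseudogene. It was at 5.58 and 4.26 FPKM in wild type versus 3.65 and 6.23 FPKM, with overlapping groups and a log2 change of -0.02 ± 0.26 (95% interval -0.70 to 0.65, adjusted p = 0.970, limma). In KO 2 only 5 members were above it, and its share of all V transcripts was 2.81%, against 0.361% and 0.234% in wild type. Without it the pseudogene sums were 14.95 and 18.78 versus 14.99 and 7.60 FPKM, 88.9% and 45.1% of the wild type mean, with KO 1 just above WT 1 and thus overlapping groups. Ighv1-2, the second, was at 3.01 and 3.55 versus 3.17 and 1.75 FPKM (adjusted p = 0.559) and overlaps the annotated microRNA gene Mir7094-1. Among V genes, Ighv2-6-8 was the only tested member with a positive log2 change, at 1.08 and 1.91 versus 2.16 and 0.94 FPKM (0.01 ± 0.32, adjusted p = 0.990), and its sign turned under 4 of the alternatives.

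Measured over all members, transcripts were spread more evenly over segments in KO 1 and KO 2, though WT 2 and KO 2 lay close together. Ighv1-81 alone held 9.25% and 5.49% of the summed level in wild type versus 1.64% and 1.36%. The measures were not taken without it, so its part in them was not tested. The inverse Simpson index, the number of equally abundant segments that would give the same concentration, was 38.4 and 52.1 in wild type versus 60.5 and 54.9, and the 10 most abundant members held 38.1% and 31.8% versus 28.9% and 31.7%. The number of members above 0 was 125, 126, 129 and 113, but it depends on depth. Thinned by formula to the 1221 fragments of KO 2, the expected number was 102 in both wild type libraries against 116 and 113. Over all 185 members Spearman's rho of FPKM was 0.938 between the wild type libraries, 0.937 and 0.939 between KO 1 and each of them, 0.860 and 0.852 between KO 2 and each of them, and 0.867 between KO 1 and KO 2. The values include 41 members listed at 0 throughout, which all libraries share. KO 2, the library with the fewest V fragments, gave the lowest values.

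**Figure D5:**
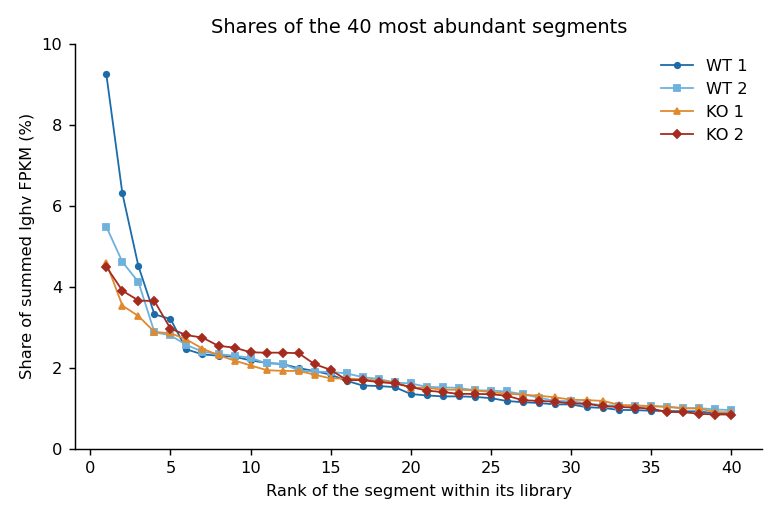
Share of summed V segment FPKM (percent) held by the 40 most abundant members of each library, ranked within that library. The curve of WT 1 starts highest, at 9.25% for Ighv1-81, and those of KO 1 and KO 2 start at 4.59% and 4.50% for Ighv1-26.

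Wild type libraries also differed between themselves at single segments. Of the 62 members with a mean of at least 5 FPKM over the 4 libraries, 61 were lower in KO 1 and KO 2 than in WT 1 and WT 2 (34.8% of the 8196 genes at that level were), and 5 were over 4-fold apart between WT 1 and WT 2, counts made after the values were seen. Ighv1-78 was at 5.39 and 34.67 FPKM in WT 1 and WT 2, and Ighv1-66 at 5.39 and 33.89 FPKM. In KO 1 and KO 2 they were at 4.87 and 2.99 FPKM and at 4.11 and 2.49 FPKM. Ighv9-4 went the other way, at 24.16 and 5.90 FPKM in wild type versus 3.60 and 1.88 FPKM.

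Genes that act on V to DJ joining and locus contraction did not pass the test. Of 21 such genes, all tested, 0 rose and 0 fell, 19 had a negative log2 change (61.7% of all genes tested did), and the median was -0.29 versus -0.09 for all genes. Rad21, a subunit of the cohesin ring that extrudes the locus, was at 131.80 and 139.39 versus 105.63 and 106.45 FPKM, and Suz12 and Ezh2, of the Polycomb complex that methylates histone H3, at 58.29 and 62.96 versus 51.96 and 41.24 FPKM and at 71.03 and 79.71 versus 65.98 and 41.28 FPKM. Il7r, the interleukin 7 receptor that early B cells need, was at 57.30 and 68.82 versus 53.41 and 23.20 FPKM. The adjusted p of these 4 lay between 0.429 and 0.452 (limma). Yy1, which bridges distant parts of the locus, was at 34.12 and 34.06 versus 36.84 and 27.11 FPKM, and Dntt, which adds bases at the junctions, at 113.15 and 103.62 versus 141.60 and 111.25 FPKM. Pax5, required for distal joining, was at 86.51 and 102.41 versus 90.21 and 42.91 FPKM.

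Factors that bind the octamer element and other sites of V promoters did not pass either. Of 8 tested, 0 passed and 7 had a negative log2 change, with a median of -0.53. Among all genes tested 61.7% had a negative change, and the median was -0.09. Pax5, Ebf1 and Tcf3 are also among the joining genes above, and Pax5, Ebf1, Pou2af1 and Spib among the B-lineage markers. Pou2f2, an octamer-binding factor of B cells, was at 7.98 and 7.91 versus 4.81 and 4.01 FPKM (log2 change -0.73 ± 0.15, adjusted p = 0.293, limma), with no overlap of the groups. Its coactivator Pou2af1 was at 274.13 and 305.47 versus 235.21 and 102.16 FPKM, and Spib at 160.50 and 188.13 versus 138.54 and 59.85 FPKM. Spi1, a factor of B cells and myeloid cells alike, was at 56.12 and 48.98 versus 72.59 and 109.53 FPKM.

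Marker lists of other cells went in different directions, and the sums of the maturing B cell and T cell lists overlapped between the groups. Of 14 neutrophil markers 12 were higher in KO 1 and KO 2 than in WT 1 and WT 2, as were 17% of all genes above 0 in a library, and 0 passed. Of 12 markers of maturing B cells 11 were tested and 1, Fcer2a, fell, where 0.203% of all genes tested did. Among the 12, 6 were lower in KO 1 and KO 2 than in WT 1 and WT 2 (20.4% of all genes above 0). Their summed levels were 549 and 529 versus 412 and 533 FPKM. Ighd, the IgD constant region of that stage, was at 48.16 and 51.23 versus 27.35 and 7.93 FPKM (adjusted p = 0.370, limma). Of 9 T cell markers 6 were tested and 0 passed, with sums of 38.39 and 41.89 versus 40.98 and 38.17 FPKM. Of 8 erythroid markers 7 were lower in KO 1 and KO 2 than in WT 1 and WT 2 (again beside 20.4%) and 0 passed, with sums of 1413 and 831 versus 412 and 701 FPKM. The part of other cells in the V segment levels was not tested.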

How the data were processed

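The authors deposited 1 table of FPKM values per library, covering 55573 Ensembl genes. The submitters' processing notes name mm9. The sources used here name no aligner or counting program, and do not say how strand or fragments shared by similar segments were treated. Gene symbols were matched for 55394 identifiers, and positions, lengths and sequences came from GENCODE M21 (GRCm38). Low FPKM values times gene length came in steps of 1 fragment, to within 0.15 fragments, for 99.4% to 99.5% of the low values checked (30% by chance), and fragments in the text are estimates from these steps.

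Group differences were tested with limma 3.58.1 (R 4.3.3) with a mean-variance trend on log2(FPKM + 1), for genes whose mean in WT or KO reached 1 FPKM. A negative log2 change means lower in KO, and the added 1 shrinks the changes of low genes. Benjamini-Hochberg adjustment ran over all genes tested. The test was also run on simulated data, with the same spread setting for all genes and no difference in cell content between libraries. That run does not show how the test behaves with libraries as unlike as KO 1 and KO 2. The members, gene lists and tests were chosen with earlier results of these data known. Segments were named by rule: those past the threshold, the 8 most abundant, the leader of each family, the ends of the locus, the largest changes, the top 3 of each library and the 2 most abundant pseudogenes. Alternatives were another pseudocount, filter, scaling and method, a replicate block, and leaving out each library. The rescaled sums of families and pseudogenes and the counts over members with both means above the bound were added after seeing the data.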

Additional observations from a re-analysis of the deposited data

How the results depend on the processing

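The summed V level was lower in the KO-labelled libraries in every alternative run, with log2 ratios of group means from -2.92 to -1.54 when each library was left out (-2.07 with all), -2.92 of these without KO 1, and -1.20 as a ratio to Ighm. The distal share difference was between -3.48 and -0.12 and the proximal between -0.62 and 2.79 percentage points with each library left out, against -1.80 and 1.09 with all, and they were 2.07 and -1.29 with the 3 most abundant members of each library left out of all libraries. The number of members called lower (2 with all libraries) ran from 0 to 48 and that of all genes called (27) from 0 to 948 when each library was left out. It was 0 members without WT 1, WT 2 or KO 2, 48 without KO 1, and the 948 genes were 563 higher and 385 lower. With a pseudocount of 0.1 there were 1 member and 15 genes, with no filter 0 and 0, with voom on estimated fragments 0 and 9, with values rescaled without immunoglobulin genes 6 and 56, and with B-lineage scaling 31 and 334, the last with 209 genes higher and a median of all genes moved from -0.09 to 0.48. No member was called higher in any of these fits.

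With the replicate block, using the numbers in the titles, 14 members and 68 genes were called, Ighv1-81 among them (adjusted p = 0.00307, limma). Deviations of same-numbered libraries had a correlation of -0.15 across genes, so the numbers are not shown to pair the libraries, and with the crossed replicate block, chosen after seeing the data, 60 members and 213 genes were called. The number of tested members with a negative change was 103 of 104, and 91 of 104 with B-lineage scaling. It was 122 of 144 with no filter, 98 of 103 without WT 2 and 96 of 106 without KO 2. In the main fit 15 of the 104 passed the filter through their wild type mean alone, which fixed a lower KO mean for them. Over all genes tested there, 61.7% had a negative change. Of the 29 named members 3 changed sign. Ighv2-6-8 turned to -0.0065 with a pseudocount of 0.1, -0.0395 rescaled without immunoglobulin genes, -0.233 without WT 1 and -0.343 without KO 1, and reached 0.361 without KO 2. Ighv1-41 turned to 0.0576 with quantile normalization, 0.55 with B-lineage scaling, 0.14 without WT 1 and 0.30 without KO 1 (-0.339 without KO 2), and Ighv1-2 to 0.14 with B-lineage scaling. The cause of these changes was not tested. Depth limits the low members most, where a value rests on a few fragments.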
